A study of Mus musculus with 4 samples.

Results

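The imprinted *Snrpn*-*Ube3a* domain of central chromosome 7 was examined in mouse embryonic stem cells (mESCs) labelled wild type or *Spen* knockout, as a set of 7 listed genes: *Snrpn*, *Snurf*, *Ndn*, *Magel2*, *Mkrn3*, *Peg12* and *Ube3a*. The genes were taken by symbol as imprinted genes of this locus, in a set drawn up with earlier results of these data known. Of the 7 genes, 6 had a row in the deposited table of 37310 genes, and 1 (*Snurf*) had none. All 6 passed the low-count filter of the test and were given an adjusted p.

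RNA-seq of the HATX line, whose *Xist* transgene is switched on by doxycycline, had been performed in 2 groups of 2 libraries. The first group was the wild-type line (HATX WT, replicates 1 and 2) and the other was SpenKO clone 2 (replicates 1 and 2), described in the study as a *Spen* deletion made in haploid mESCs. Both groups share a mixed genomic background, growth in serum and LIF on gelatin, and the *Xist* transgene, and no treatment is given in the labels. Each group is a single cell line, the knockout group is a single clone, and nothing states that replicates were separate cultures. P-values therefore measure the spread between these libraries only, and any difference between the lines that is not *Spen* cannot be told apart from the deletion. Total counts per library were 36667685 to 43835004 in WT and 54715889 to 61908422 in the other group. *Spen* RNA itself was higher under the knockout label, at 3716 and 3047 normalized counts in WT against 7797 and 6242, and its exons share a few bases with *Zbtb17* on the other strand. A count over the whole gene does not show which part of it was read, so it checked the deletion neither way, and the second group is called KO-labelled below.

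Imprinted genes are expressed mainly from the copy inherited from 1 parent. In this domain an imprinting centre at the main *Snrpn* promoter is methylated on the maternal copy, and the unmethylated paternal copy expresses *Snrpn*, *Snurf*, *Ndn*, *Magel2*, *Mkrn3* and *Peg12*. *Ube3a* is the opposite case in neurons, where a long transcript that runs on from *Snrpn* silences its paternal copy, while most other cells use both copies. Loss of the paternal genes in people causes Prader-Willi syndrome and loss of maternal *UBE3A* causes Angelman syndrome. The counts used here do not separate the parental copies, and DNA methylation was not measured in them.

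The GENCODE vM1 annotation gives *Snrpn* (ENSMUSG00000000948.9) as a minus-strand gene spanning 67127388 to 67285105 of chromosome 7 in mm9, the build of all positions here. Its transcript Snrpn-201 starts at 67150042 and its longer transcript Snrpn-202 at 67285105, and both were counted together. RefSeq lists the same 300-base promoter for *Snrpn* and *Snurf*, which are read from a shared transcript that encodes both proteins, so a *Snurf* difference cannot be told apart from a *Snrpn* difference here. For *Snrpn* it lists 3 more promoters farther upstream, of which that of Snrpn-202 is printed. The promoters below are from RefSeq (GRCm38.p6) and each matched the mm9 sequence exactly at the position given. They are shown to set the promoter of *Snrpn*, which fell, beside those of *Mkrn3* and *Peg12*, which did not pass the test. Each runs 5′ to 3′ on the minus strand, and capitals mark TGCCGC (or its reverse complement GCGGCA), the letters bound by the imprint-keeping protein ZFP57, and TGCGCA, core letters of the site of the activator NRF1.

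*Snrpn* and *Snurf*, chr7:67150036-67150335: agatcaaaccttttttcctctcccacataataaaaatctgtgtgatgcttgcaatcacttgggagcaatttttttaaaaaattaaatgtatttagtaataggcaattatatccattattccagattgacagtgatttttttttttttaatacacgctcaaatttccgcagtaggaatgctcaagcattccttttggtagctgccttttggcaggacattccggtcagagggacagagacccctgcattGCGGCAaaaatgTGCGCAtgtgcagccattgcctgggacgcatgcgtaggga

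*Snrpn* upstream (Snrpn-202), chr7:67285062-67285361: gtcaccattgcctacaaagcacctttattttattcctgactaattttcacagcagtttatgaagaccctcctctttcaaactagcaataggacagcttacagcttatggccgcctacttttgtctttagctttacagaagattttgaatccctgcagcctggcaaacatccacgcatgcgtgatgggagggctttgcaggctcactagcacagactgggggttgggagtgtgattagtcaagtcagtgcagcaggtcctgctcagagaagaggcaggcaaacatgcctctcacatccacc

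*Mkrn3*, chr7:69564990-69565289: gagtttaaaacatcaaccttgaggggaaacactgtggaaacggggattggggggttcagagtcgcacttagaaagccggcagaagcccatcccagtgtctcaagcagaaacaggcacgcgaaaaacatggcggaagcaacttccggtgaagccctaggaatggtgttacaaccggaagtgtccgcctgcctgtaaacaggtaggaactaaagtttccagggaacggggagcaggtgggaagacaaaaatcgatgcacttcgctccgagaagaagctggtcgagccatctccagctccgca

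*Peg12*, chr7:69609347-69609646: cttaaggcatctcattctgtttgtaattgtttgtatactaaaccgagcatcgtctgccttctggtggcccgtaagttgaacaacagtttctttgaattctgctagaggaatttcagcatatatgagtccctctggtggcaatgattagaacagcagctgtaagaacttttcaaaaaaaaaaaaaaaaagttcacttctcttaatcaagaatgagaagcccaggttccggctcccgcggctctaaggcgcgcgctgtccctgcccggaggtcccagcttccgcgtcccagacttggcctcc

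The main *Snrpn* promoter held 1 match to each motif, and the other printed promoters held 0. Of the promoters not printed, that of *Ndn* held 1 NRF1 match, and those of *Magel2*, *Ube3a* and the other two upstream *Snrpn* promoters held 0 of either. Among 32544 distinct RefSeq promoters of 300 bases, 11.7% held the ZFP57 letters and 7.8% held the NRF1 letters on either strand. The main promoter had 7 CpG dinucleotides, the 3 upstream *Snrpn* promoters 2, 3 (the printed one) and 4, *Mkrn3* 15, *Peg12* 12, *Ndn* 11, *Magel2* 10 and *Ube3a* 29, against a median of 7 over all promoters. These matches describe letters only, and whether either protein was bound was not measured.

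*Snrpn* was the only domain gene called different, and it fell. It encodes SmN, a relative of the Sm protein SmB that sits in the core of splicing particles. Its normalized counts (counts divided by a size factor for each library) were 566 (replicate 1) and 518 (replicate 2) in WT, and the KO-labelled replicates 1 and 2 held 57.5 and 51.7. Both KO-labelled libraries lay far below both WT libraries, and the raw counts behind them were 427, 476, 66 and 66. The means were 542 ± 33.8 and 54.6 ± 4.12 (SD, n = 2), a 9.94-fold lower level. On the log2 scale this was -3.31 ± 0.23 (SE), DESeq2 adjusted p = 2.41e-44, and the value lay between -3.41 and -3.23 under every other setting tried. Calls here need a 2-fold difference or more and an adjusted p under 0.001, the thresholds in the methods of the study. In all, 1 of 6 domain genes was called lower and 0 higher, against 4.51% of the 17710 genes tested, of which 3.15% were lower and 1.36% higher. By the looser rule of any difference with an adjusted p under 0.05, again 1 of 6 passed, against 32.3% of all genes. At an unadjusted p under 0.05 DESeq2 had 1 domain gene lower and 1 higher (*Ube3a*), and edgeR called 1 lower and 0 higher. The share of all genes at that unadjusted cut was not taken, here or for the lists below. That share cannot be under the 32.3% that passed the adjusted rule. Counts at the unadjusted cut are therefore not read as a result about any list. Near-identical sequence elsewhere in the genome covered 27.8% of 75-base windows of *Snrpn* exons, so part of its counts could come from or be lost to copies. No annotated gene overlaps *Snrpn* or any other of the 6.

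**Figure D1:**
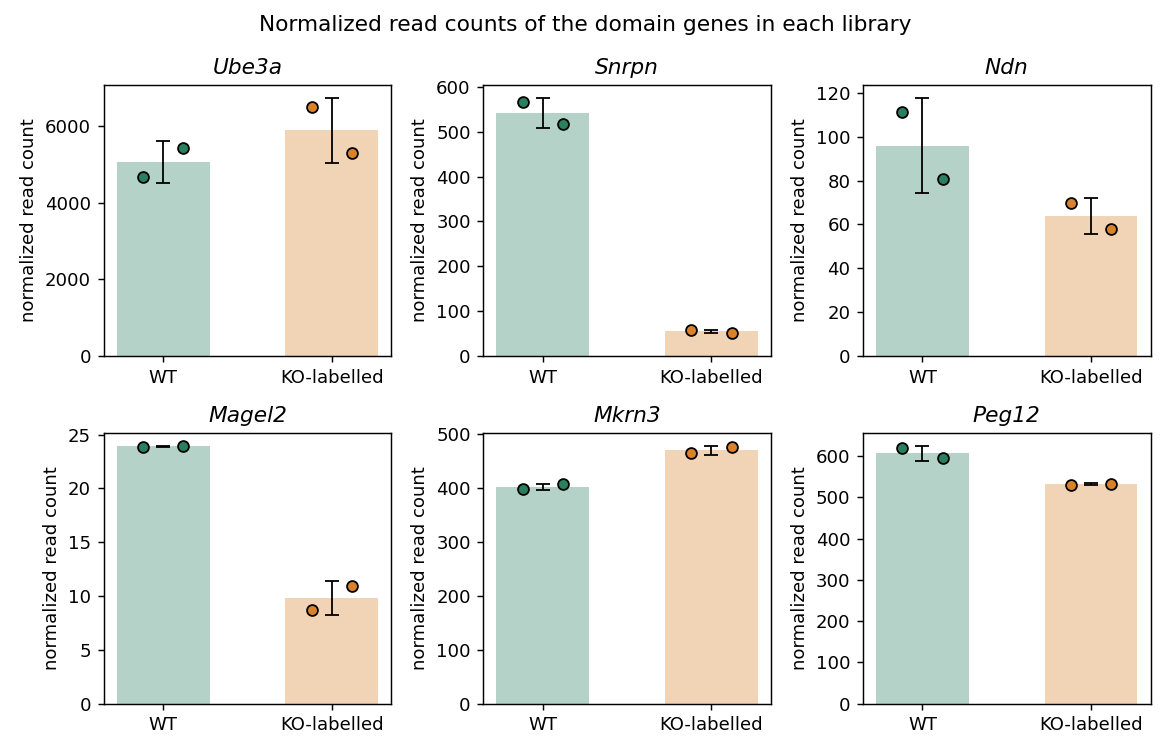
Normalized read count (vertical axes, linear from 0) of each of the 6 domain genes in WT and KO-labelled mESCs. Points are libraries, bars are means and error bars are SD (n = 2); *Snrpn* drops from 542 to 54.6, *Ube3a* libraries overlap between groups, and *Mkrn3* and *Peg12* means differ by less than 2-fold.

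Beyond the 3′ end of *Snrpn* lie 2 annotated C/D box snoRNA genes of the same strand, whose host is the transcript that continues from *Snrpn*. Snord64 raw counts were 8 and 7 under WT, then 0 and 0. SNORD107 raw counts were 5 and 10 under WT, then 0 and 0. Both were thus seen in each WT library and in neither KO-labelled library. Against a floor of 3 counts per KO-labelled library, the WT mean was 3.68-fold higher for Snord64 and 3.53-fold higher for SNORD107. The counting error of the WT means is not in these values. The 95% intervals of the log2 fold changes ended at -1.768 and -1.665, and neither gene was given an adjusted p. Reads of the host transcript across these positions would count here too. They are the only annotated snoRNAs of the domain with counts in more than 1 library. Both were picked after their counts were seen, so the 0 counts under the KO label are not a test. Other scarce genes of the region had more counts under the KO label, such as Gm9801 (raw counts 2 and 0 in WT, then 10 and 4). The mm9 sequences of both snoRNAs on the minus strand are printed below, with the C box TGATGA and the last D box CTGA in capitals.

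Snord64, chr7:67123694-67123760: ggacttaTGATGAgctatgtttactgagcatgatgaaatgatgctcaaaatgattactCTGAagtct

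SNORD107, chr7:67125762-67125831: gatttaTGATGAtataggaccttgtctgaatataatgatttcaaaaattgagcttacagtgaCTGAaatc

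Farther along the same transcript, the snoRNA arrays gave almost no counts in either group. The 27 annotated SNORD116 copies had 0 counts in all libraries, and the 137 SNORD115 copies had 1 count in WT replicate 1 and 0 elsewhere. A count of 0 allows up to 3 counts in a library. How reads with several matches were treated was not given, and no copy check was run on snoRNA genes. Low depth and lost reads of repeated copies therefore cannot be told apart, and a difference between groups was not detectable here. Of 198 annotated genes between *Ube3a* and *Peg12* that are not in the list, 11 had a count in any library. Only Gm7367, a gene of unstated role just upstream of the Snrpn-202 start, reached a mean of 10 normalized counts. Its raw counts were 10, 16, 26 and 24 and its log2 fold change was 0.43 (DESeq2 adjusted p = 0.747). Copies covered 75.9% of its windows.

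The MAGE genes of the domain, *Ndn* and *Magel2*, had lower means in the KO-labelled libraries but did not pass the test. *Ndn* (ENSMUSG00000033585.4, 69493163 to 69494814) encodes necdin, a growth-restraining MAGE protein of neurons. Its normalized counts were 111 and 80.6 in WT and 69.7 and 57.9 under the KO label. The groups did not overlap, but the WT libraries differed from each other by more than the gap between groups. The log2 fold change was -0.59 ± 0.39 (SE; DESeq2 adjusted p = 0.27), with a 95% interval of -1.35 to 0.18. Without WT replicate 1 it was -0.33, and without WT replicate 2 it was -0.80, so the size of the difference rested on single libraries.

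*Magel2* (ENSMUSG00000056972.5, 69521865 to 69526526) encodes a MAGE protein that joins the ubiquitin ligase TRIM27 in endosomal recycling. It was the scarcest of the 6 genes, with raw counts of 18 and 22 in WT and 10 and 14 in the KO-labelled libraries. Its normalized counts were 23.9 and 24.0 in WT and 8.71 and 11.0 in the KO-labelled libraries, without overlap. The log2 fold change was -1.28 ± 0.82 (SE), with an adjusted p of 0.245 in DESeq2 and 0.0487 in edgeR. Its 95% interval of -2.88 to 0.32 held no change and also a fall of more than 4-fold, so the size of any difference was poorly resolved at this depth. The interval of *Snrpn* was -3.77 to -2.86, which it met only at the edge.

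*Mkrn3* and *Peg12*, single-exon genes at the distal end, had narrow intervals around small differences. *Mkrn3* (ENSMUSG00000070527.2, 69562479 to 69565039) encodes a makorin ubiquitin ligase that delays puberty. Its normalized counts were 398 and 406 in WT and 464 and 476 under the KO label. The latter were the higher ones, with a log2 fold change of 0.23 ± 0.17 (SE; DESeq2 adjusted p = 0.348) and a 95% interval of -0.11 to 0.56. *Peg12* (ENSMUSG00000070526.2, 69606757 to 69609396), a Frat family gene whose relatives bind GSK3, had 620.5 and 595 normalized counts in WT. Both KO-labelled values were lower, at 531 and 534, a log2 fold change of -0.19 ± 0.15 (SE; DESeq2 adjusted p = 0.381) and an interval of -0.49 to 0.11. Neither interval reached a 2-fold change. The groups did not overlap in 5 of the 6 domain genes, against 70.2% of all genes tested. In 4 of the 6 the KO-labelled libraries were the lower ones, against 34.8%.

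*Ube3a* (ENSMUSG00000025326.7, plus strand, 66484122 to 66562097), the E3 ubiquitin ligase at the proximal end, was the most abundant of the 6 and did not pass the test. Its normalized counts were 4658 and 5432 in WT and 6483 and 5285 in the KO-labelled libraries, and the groups overlapped. The log2 fold change was 0.22 ± 0.10 (SE; DESeq2 adjusted p = 0.0938), with an interval of 0.02 to 0.43. Which library was left out moved the value from 0.07 (without KO-labelled replicate 1) to 0.36 (without KO-labelled replicate 2), and the adjusted p ran from 0.0214 to 0.735 over all settings. The annotation holds no antisense gene over *Ube3a*. The nearest annotated gene on the opposite strand, C230091D08Rik, had raw counts of 0 and 3 under WT, then 6 and 4.

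Because library scaling cancels in a ratio of genes within a library, *Snrpn* was also set against its neighbours by raw counts. The ratio of *Snrpn* to *Peg12* counts was 0.912 and 0.872 in WT and 0.108 and 0.0968 in the KO-labelled libraries, an 8.70-fold difference of means. The ratio to *Mkrn3* was 1.42 and 1.28 in WT and 0.124 and 0.109 in the KO-labelled libraries, an 11.6-fold difference. The ratio to *Ndn* differed 6.71-fold and that to *Magel2* 4.01-fold, each higher in both WT libraries. An exact two-sided permutation test of each ratio gave p = 0.333, the smallest that 2 libraries against 2 can give. The ratios therefore separated the groups in every library, in a design too small for that test to reach 0.05.

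Per kilobase of exon, which allows levels of different genes to be compared, the order of the genes also differed between groups. In WT the mean levels (± SD, n = 2) were 989.7 ± 107 normalized counts per kb for *Ube3a*, 247 ± 15.4 for *Snrpn*, 230.1 ± 6.94 for *Peg12*, 157 ± 2.33 for *Mkrn3*, 58.1 ± 13.2 for *Ndn* and 5.13 ± 0.014 for *Magel2*. *Snrpn* and *Peg12* lay next to each other there, with lowest and highest libraries of 236 and 258 against 225 and 235, so their nearest libraries lay closer than 1 SD of *Snrpn*. The KO-labelled levels were 1154 ± 166 for *Ube3a*, 202 ± 0.68 for *Peg12*, 183.5 ± 3.23 for *Mkrn3*, 38.6 ± 5.03 for *Ndn*, 24.8 ± 1.87 for *Snrpn* and 2.11 ± 0.34 for *Magel2*. No neighbours in either order overlapped. *Snrpn* thus went from the second to the fifth place.

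Among the genes on either side of the domain *Atp10a* was the only one called. *Atp10a* (65913572 to 66084796, plus strand) encodes a phospholipid flippase and lies proximal to *Ube3a*, with its start at -1.24 Mb from that of Snrpn-201. It had 315 and 307 raw counts in WT and 105 and 114 in the KO-labelled libraries. Its normalized means were 376 and 90.3, and it fell by 2.06 on the log2 scale (SE 0.24, DESeq2 adjusted p = 1.24e-15). Of 18 flanking genes 16 had an adjusted p, with 1 called lower and 0 higher by DESeq2 and by edgeR, near the 4.51% of all genes called, and with 5 lower and 3 higher at an unadjusted p under 0.05. Their median log2 fold change was -0.04, against 0.005 over all genes tested. Under 2-fold, *Tubgcp5* and *Tjp1* were higher at 0.37 and 0.23 (adjusted p = 0.000565 and 0.00514), and *Cyfip1* was lower at -0.36 (adjusted p = 0.000144). The GABA receptor subunit gene *Gabra5* had few counts (20, 18, 8 and 10) and a log2 fold change of -1.64 with an adjusted p of 0.146, and *Apba2*, a synaptic adaptor gene, had -0.99 (adjusted p = 0.0563). The median log2 fold change of chromosome 7 was 0.09 over 1079 genes, and chromosome medians ran from -0.35 (chromosome 10) to 0.38 (chromosome 19). With chromosome medians removed *Snrpn* was at -3.41 and *Atp10a* at -2.15.

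**Figure D2:**
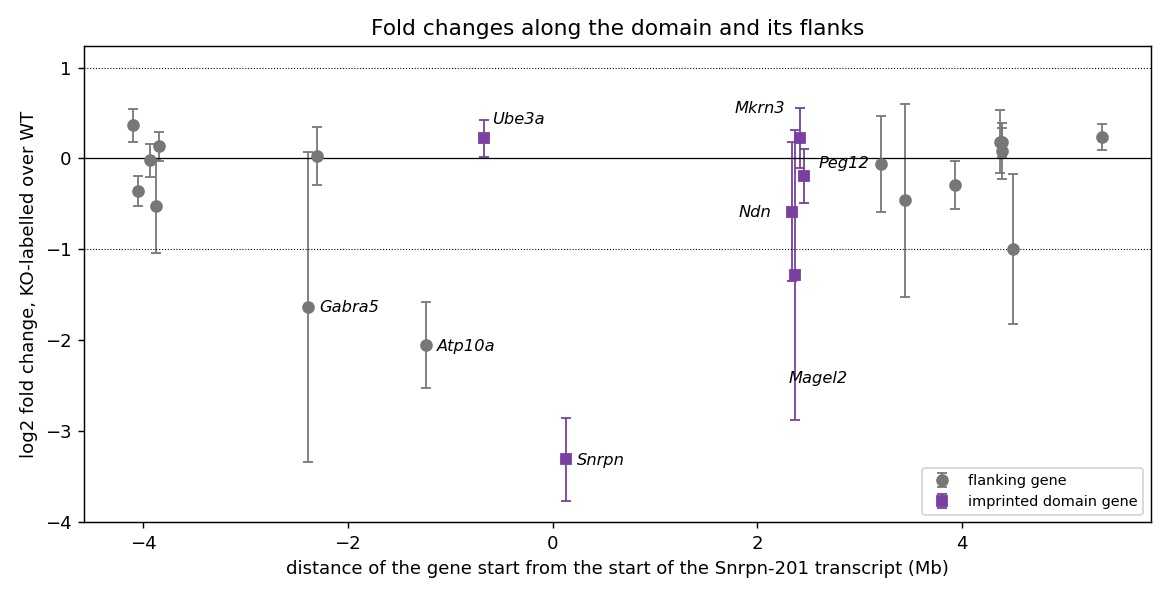
Log2 fold change (KO-labelled over WT, vertical axis) against the distance of each gene start from the start of Snrpn-201 in Mb (horizontal axis) for the 6 domain genes (squares) and the 16 flanking genes with an adjusted p (circles). Error bars are 95% intervals and dotted lines mark a 2-fold change; *Snrpn* at -3.31 and *Atp10a* at -2.06 are the genes whose intervals lie wholly beyond 2-fold lower.

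Genes that set, keep or remove imprints were compared next. Of 19 such genes 1 was called lower and 0 higher, by DESeq2 and by edgeR, near the 4.51% of all genes called, with 10 higher and 6 lower at an unadjusted p under 0.05. At an adjusted p under 0.05, 10 were higher and 4 lower, against 16.4% higher and 15.8% lower over all genes, and the median log2 fold change was 0.19. *Dnmt3l*, the partner that stimulates DNA methyltransferases when imprints are laid down in germ cells, was the called gene. Its raw counts were 12406 and 14324 in WT and 7431 and 8569 in the KO-labelled libraries, a log2 fold change of -1.28 ± 0.07 (SE, DESeq2 adjusted p = 1.59e-72). With chromosome medians removed it was at -0.94, short of 2-fold, and 67 of its exonic bases are shared with *Aire* on the other strand. *Dnmt3b*, a de novo DNA methyltransferase, was lower by less than 2-fold at -0.79 (adjusted p = 3.18e-29), and *Tet2*, which oxidises methylcytosine, was higher at 0.61 (2.38e-14). *Zfp57*, *Trim28* and *Setdb1*, which keep imprints methylated in mESCs, had 0.21, 0.26 and 0.53 (adjusted p = 0.0106, 0.0129 and 1.23e-12). *Smchd1*, a chromatin protein known to repress genes of this domain, had -0.05 (adjusted p = 0.721). Near-identical copies covered 10.9% of *Dnmt3b* and 14.1% of *Setdb1* windows.

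Relatives and partners of the domain proteins were taken in 4 lists, in which 1 of 35 genes tested was called (2.86%), near the 4.51% of all genes. Among 7 Sm core genes 0 were called in either direction by DESeq2 or edgeR, with 1 higher and 2 lower at an unadjusted p under 0.05 and a median of 0.09. *Snrpb*, the gene for SmB and the closest relative of *Snrpn*, had 16630 and 16930 normalized counts as group means (log2 fold change 0.03, adjusted p = 0.826). *Snrpf* was at -0.41 (adjusted p = 0.0377), *Snrpd3* at -0.17 (0.0581) and *Snrpd1* at 0.16 (0.133). *Snrpf* and *Snrpd3* lie on chromosome 10, whose median log2 fold change was -0.35. *Snrpf* shares exonic bases with genes on the other strand, and copies covered 64.5% of *Snrpd1* windows.

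Among 11 MAGE relatives and retromer genes 1 was called lower and 0 higher by DESeq2 and by edgeR, with 3 lower and 1 higher at an unadjusted p under 0.05. The called gene was *Maged2*, an X-linked MAGE gene, with 1103 and 1154 raw counts in WT and 684 and 826 in the KO-labelled libraries, a log2 fold change of -1.13 ± 0.13 (SE, DESeq2 adjusted p = 4.56e-16). *Vps26a*, a retromer subunit gene, and *Maged1* were lower by less than 2-fold, at -0.60 (adjusted p = 4.79e-10) and -0.54 (4.99e-12). *Vps26a* lies on chromosome 10, whose median log2 fold change was -0.35. *Trim27* and *Usp7*, which work with *Magel2*, had 0.17 and 0.03.

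Among 11 genes for relatives, E2 enzymes and binding partners of *Ube3a*, 0 were called by DESeq2 or edgeR, with 4 higher and 1 lower at an unadjusted p under 0.05 and a median of 0.12. *Ube2l3*, an E2 enzyme that works with *Ube3a*, had 3138 and 3143 normalized counts as group means. The largest differences were *Ube2d1* at -0.38 (adjusted p = 0.0416), *Psmd4* at 0.26 (0.000804) and *Ube2d3* at 0.22 (0.00186), the last with copies over 48.1% of its windows. *Ube2d1* lies on chromosome 10, whose median log2 fold change was -0.35. Among 6 makorin, Frat and GSK3 genes 0 were called by either tool, with 3 higher and 1 lower at an unadjusted p under 0.05. *Frat1*, *Frat2* and *Gsk3a* had 0.56, 0.37 and 0.28, with adjusted p of 0.643, 0.14 and 0.00831, and with copies over 33.3%, 10.3% and 32.1% of windows. *Frat1* and *Frat2* lie on chromosome 19, whose median log2 fold change was 0.38.

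**Figure D3:**
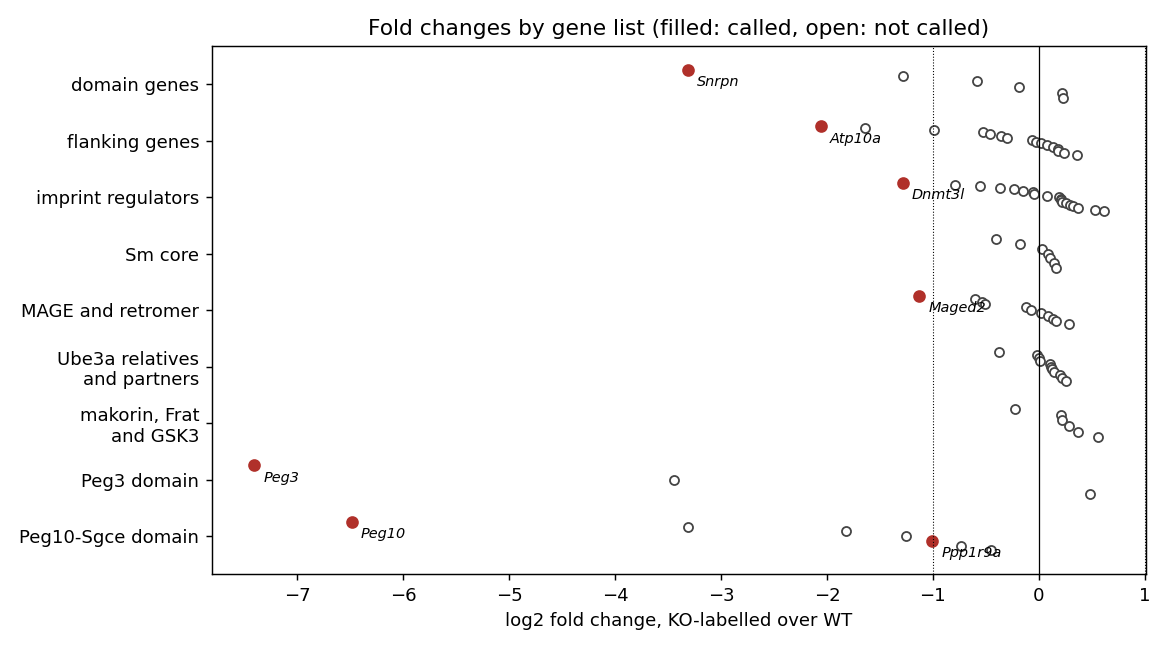
Log2 fold change (KO-labelled over WT, horizontal axis) of every gene with an adjusted p in each list (rows), filled where called and open where not, with dotted lines at 2-fold. *Snrpn*, *Atp10a*, *Dnmt3l* and *Maged2* are the called genes of the domain, flanking, regulator and MAGE lists, and *Peg3*, *Peg10* and *Ppp1r9a* those of the 2 compared domains.

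The *Peg3* and *Peg10*-*Sgce* domains, other clusters built around paternally expressed genes, are given side by side with it. *Peg3* had 1703 and 2288 raw counts in WT and 16 and 18 in the KO-labelled libraries (log2 fold change -7.41), while its neighbour *Usp29* had 64, 63, 108 and 153 (0.48, adjusted p = 0.349) and *Zim1* had 16, 22, 3 and 2 (-3.45, adjusted p = 0.00754). *Peg10* had 1366, 1991, 26 and 28 raw counts (-6.48), *Sgce* had 22, 17, 0 and 6 (-3.31, adjusted p = 0.0146), and *Ppp1r9a* was called lower at -1.01, just past the 2-fold line, and not called with upper-quartile size factors (-0.97) or without WT replicate 1 or KO-labelled replicate 2 (-0.98 each). Of the other *Peg10* neighbours, *Asb4* and *Pon2* had -1.82 and -1.25 (adjusted p = 0.0432 and 0.036), and *Pon3* and *Calcr* had -0.46 and -0.74 (0.697 and 0.615). In the *Peg3* domain 1 of 3 genes was called and in the *Peg10*-*Sgce* domain 2 of 7, all lower, beside 3.15% of all genes called lower, and no test between the domains was made.

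Across the 4 libraries the genes whose pattern was closest to that of *Snrpn* were *Klhl13*, *Pls3* and *Gm9*, all on chromosome X. Likeness was the Euclidean distance between centred log2(normalized count + 1) values over the 4 libraries, among 13301 genes with a mean of at least 50, and the distances were 0.14, 0.231 and 0.289. Their log2 fold changes were -3.32, -3.49 and -3.50, and *Klhl13* overlaps the pseudogene Gm14523. With 4 libraries in 2 groups this measure mainly reads the size of the group difference.

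Markers of the labelled cell type were present. All 10 pluripotency markers were detected, 0 were called by DESeq2 or edgeR (2 higher at an unadjusted p under 0.05), and their summed level was 4986 to 4995 CPM (counts as a share of the library total) in WT and 5175 to 5318 in the KO-labelled libraries. Neural markers, of which 13 of 14 had a row and 11 an adjusted p, summed to 514 to 528.5 CPM in WT and 410 to 415 in the KO-labelled libraries. Much of that sum was *Stmn2*, at 296 and 305 CPM in WT against 217 and 216, and the other 12 genes summed to 218 to 223 and to 193 to 198.5. DESeq2 had 6 neural markers lower and 1 higher at an unadjusted p under 0.05, a cut for which no share of all genes was taken. Of the 11 tested 3 (*Map2*, *Neurod1* and *Pax6*) were called lower, beside 3.15% of all genes, *Elavl3* was higher by less than 2-fold (log2 fold change 0.48, adjusted p = 0.0147), and *Tubb3* had -0.05 (adjusted p = 0.67). The call of *Neurod1* was lost without WT replicate 2 (adjusted p = 0.0102). *Dcx*, which defines young neurons, had 4 counts in each WT library and 0 in both KO-labelled ones. The 7 primitive endoderm markers summed to 11.0 to 12.2 and to 5.07 to 6.01 CPM, and 3 of the 5 with an adjusted p were lower at an unadjusted p under 0.05. Of the 5 tested DESeq2 called 1 lower (*Sox7*), beside the same 3.15%, and edgeR 2, and the *Sox7* call was lost with the replicate block (adjusted p = 0.00141) and without any 1 library (adjusted p = 0.00235 to 0.0366). The 8 fibroblast markers summed to 4.25 to 4.93 and to 8.99 to 10.2 CPM. Most of that rise was *Thy1*, which was called higher, while the other 7 summed to 1.83 to 2.05 CPM in WT and 1.52 to 1.66 in the KO-labelled libraries. The other 7 went both ways. *Acta2* was lower (log2 fold change -2.25, adjusted p = 0.0082) but not called, *Col1a1* had 27.8 and 21.8 normalized counts in WT against 49.6 and 47.7 (0.98, adjusted p = 0.188), and *Lum* and *Postn* were each at 0 in 3 libraries. Summed neural and primitive endoderm markers were thus lower beside *Snrpn* and fibroblast markers were mixed, and their part in its fall was not tested. In bulk RNA, fewer cells that express *Snrpn* and less *Snrpn* RNA per cell cannot be told apart.

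**Figure D4:**
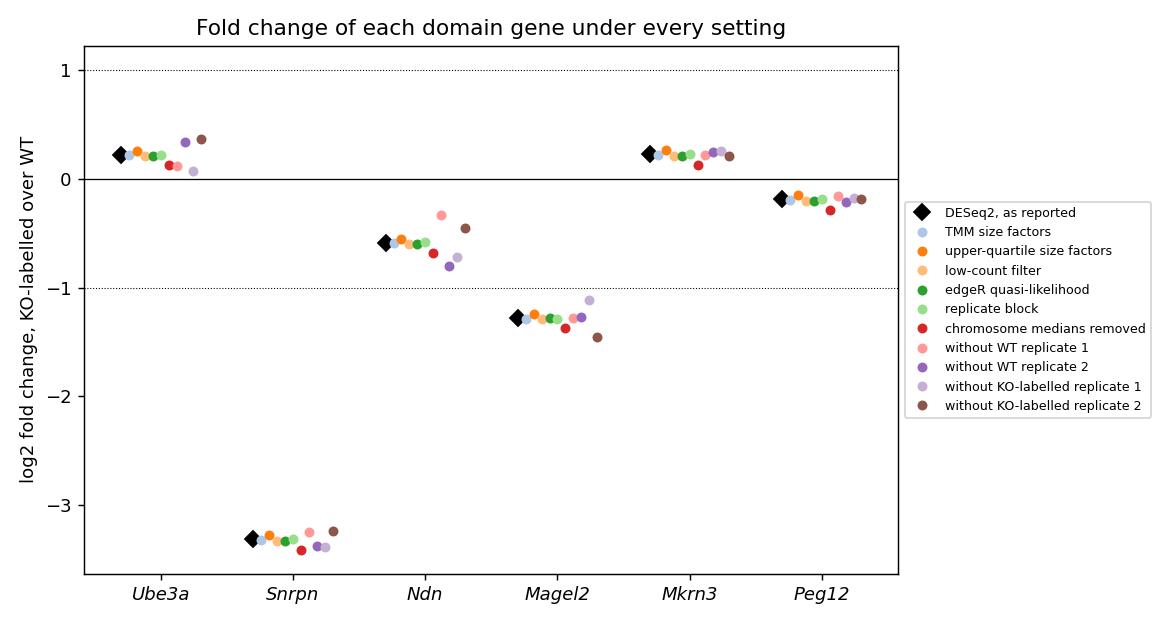
Log2 fold change (KO-labelled over WT, vertical axis) of each domain gene (horizontal axis) under the reported DESeq2 test (black diamonds) and 10 other settings (coloured points), with dotted lines at 2-fold. *Snrpn* stays between -3.41 and -3.23, *Ndn* spreads from -0.80 to -0.33, and *Mkrn3*, *Peg12* and *Ube3a* stay within 2-fold.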

How the data were processed

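Total RNA was freed of rRNA and made into strand-marking libraries, so transcripts without a poly-A tail could also be counted. Per the study's methods and the labels, the authors mapped paired reads to mm9 with STAR and assigned them to GENCODE vM1 genes with featureCounts to give the deposited table, which holds whole-number counts for each gene with no normalization. Versions, the strand setting and the treatment of reads with several matches were not given in the sources used here. All 4 columns were matched to samples by name, with 0 columns left over. Gene positions, exonic lengths and overlaps came from GENCODE vM1 on NCBIM37 (mm9), which matched every identifier.

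Groups were compared with DESeq2 1.42.0 under R 4.3.3 (group as the only term, Wald test, median-of-ratios size factors, independent filtering, Benjamini-Hochberg adjustment over all genes with an adjusted p, 17710). Positive log2 fold changes are higher in KO-labelled libraries. Intervals are the estimate ± its Wald error at 95%. edgeR 4.0.16 (quasi-likelihood, TMM) and the other settings are described at the end. Both tools were tested on simulated counts. Copies were sought by mapping 75-base exonic windows to mm9 with minimap2 2.31 and counting windows with at least 71 identical bases elsewhere.

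Members and lists were chosen with earlier results of these data known. Of the listed symbols *Snurf*, *Sox1* and *Zfp264* had no row, and *Map2* was found under its older symbol. Named genes are the domain genes, every called gene and the 3 most changed genes of each flanking, regulator and partner list, the genes of both compared domains with a mean of at least 10, non-member genes from *Ube3a* to *Peg12* with a mean of at least 10, *Spen*, and the 3 genes closest in pattern to the called domain gene of highest mean. Other genes were named after their values were seen.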

Additional observations from a re-analysis of the deposited data

How the results depend on the processing

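Other settings comprised size factors by TMM or upper quartile, a filter of at least 10 counts in at least 2 libraries, edgeR, the replicate number as a block, removal of chromosome medians, 2 other thresholds and leaving out each library, where the lone library is assumed to vary like the other group. *Snrpn* was called and the other 5 domain genes were not in each of these. Without single libraries the log2 fold change was -3.38 to -3.23 for *Snrpn*, -0.80 to -0.33 for *Ndn*, -1.45 to -1.12 for *Magel2* (no adjusted p in these fits), 0.21 to 0.25 for *Mkrn3*, -0.22 to -0.16 for *Peg12* and 0.07 to 0.36 for *Ube3a*.

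Dropping the fold minimum (adjusted p under 0.001 alone) gave 1 flanking gene higher and 2 lower, 3 imprint regulators higher and 4 lower, 3 MAGE and retromer genes lower, 1 *Ube3a* partner higher, and 1499 genes higher and 1571 lower in the whole table, by construction of that threshold. An adjusted p under 0.05 with a 2-fold change gave 371 genes higher and 852 lower. With chromosome medians removed 0 imprint regulators were called lower. Without single libraries 137 to 185 genes were called higher and 332 to 404 lower, where fewer samples were fitted.

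Replicate numbers were not treated as a pairing, since libraries sharing a number did not deviate together (correlation -0.02 over genes). With the replicate block *Snrpn* was at -3.31, and 192 genes were called higher and 457 lower. Low depth limits *Magel2* and the snoRNA genes, and the treatment of reads with several matches, which was not given, also limits the snoRNA arrays.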
